A study of Mus musculus with 12 samples.

Results

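Mir143 and Mir145 are a pair of miRNA genes that lie next to each other and are best known from smooth muscle and other mesenchymal cells. The members were the rows of the deposited small RNA table named Mir143 (ENSMUSG00000065445) and Mir145 (ENSMUSG00000065592), 2 of 32101 annotated features and 2 of 1577 annotated as miRNA. The pair was selected on its levels in the 3 groups below, so those levels and every fold change of a member are a description and carry no test. All libraries came from mouse embryonic stem cells (ESCs), pluripotent cells of the early embryo grown in culture, labelled with the background E14. The genotype labels were Wildtype (WT, 6 libraries titled 1A, 1B, 2A, 2B, 3A and 3B), Dnmt1 -/- (Dnmt1 KO, 2 libraries titled A and B) and Dicer/Dnmt1 -/- (Dicer/Dnmt1 KO, 4 libraries titled 1A, 1B, 2A and 2B, called the double knockout below). The WT libraries 2A and 2B are the ones whose titles name E14 without a genotype. Titles with a common number were taken as 1 culture, as were Dnmt1 KO A and B, which gives 3 WT cultures, 1 Dnmt1 KO culture and 2 double knockout cultures. Whether A and B were grown apart is not given, so p-values measure the spread between these libraries, which may be partly technical.

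The study's methods describe deletion by a Cre recombinase induced with tamoxifen in a line of another mouse strain than E14, and Dicer alleles made in single-cell colonies with CRISPR. The study describes the WT of its own small RNA comparison of these genotypes as uninduced cells with floxed Dicer and Dnmt1 alleles, while the labels give Wildtype with no allele and do not say which of the 6 WT libraries those are. Nor is it given how many days after induction a library was made, or which of the libraries came from cells grown with feeder cells. Line, clone, days and feeder cells therefore cannot be told apart from genotype here. DNMT1 is the enzyme that copies DNA methylation onto new strands at replication. DICER is the ribonuclease that cuts miRNA hairpins into mature miRNAs.

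A miRNA gene is transcribed into a long primary RNA, from which a hairpin is released in the nucleus and then cut by DICER into a duplex of about the length sequenced here. One strand is loaded into an ARGONAUTE protein and pairs through its seed, bases 2 to 8, with target mRNAs. In smooth muscle the 2 hairpins of this pair come from 1 primary RNA, whose transcription is driven by serum response factor (Srf) with its cofactor myocardin (Myocd). The reported targets of the pair include the pluripotency genes Sox2, Klf4 and Pou5f1 for Mir145, and Mapk7 for Mir143.

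The table counts reads per hairpin gene and does not separate the 2 arms. Mature sequences are shown for the 4 miRNAs against which Mir143 is set below, both arms of each, because they show which RNA a read of these rows can be. They were taken from RefSeq on build GRCm38.p6, where 4 of 4 symbols matched and Mir21 is listed as Mir21a. No sequence is printed for Mir143 and Mir145. Capitals mark the seed, and all 8 seeds differ from each other. The first 3 miRNAs belong to the mesenchymal list used below, and Mir127 is the miRNA whose levels followed those of Mir143 most closely.
mmu-miR-21a-5p: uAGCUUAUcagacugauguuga
mmu-miR-21a-3p: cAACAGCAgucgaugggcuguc
mmu-miR-22-5p: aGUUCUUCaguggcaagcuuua
mmu-miR-22-3p: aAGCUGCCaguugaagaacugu
mmu-miR-10a-5p: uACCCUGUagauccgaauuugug
mmu-miR-10a-3p: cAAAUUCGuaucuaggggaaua
mmu-miR-127-5p: cUGAAGCUcagagggcucugau
mmu-miR-127-3p: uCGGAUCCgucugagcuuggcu

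Depth was low and uneven, from 8710 reads in double knockout 1B to 245184 in WT 1A. RPM are reads per 1000000 reads of a library, so 1 read of WT 1A gave 4.08 RPM and 1 read of double knockout 1B gave 114.81 RPM. miRNAs made up 29.5% to 65.8% of the counts in the WT libraries, 51.4% and 53.4% in the Dnmt1 KO libraries and 6.55% to 12.7% in the double knockout libraries. Dicer1 had 0 to 3 reads and Dnmt1 0 to 18 reads per library, too few to check the genotype labels. The ESC-specific miRNAs of the Mir290 and Mir302 clusters, 12 of 12 listed and all with reads, summed to 28683 to 93275 RPM in WT libraries and to 55926 and 99648 RPM in the Dnmt1 KO libraries, so that markers of the labelled cell type were present there. In the double knockout libraries they summed to 1221 to 3797 RPM.

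Mir143 was at 333 to 1115 RPM in WT and at 4393 RPM or more in every library of both knockout groups. In WT it had 559 RPM in 1A (137 reads), 517 in 1B (75 reads), 1115 in 2A (18 reads), 592 in 2B (83 reads), 333 in 3A (24 reads) and 396 in 3B (57 reads). WT 2A, the highest of them, was also the shallowest WT library, and its 95% Wilson interval ran from 706 to 1762 RPM. In Dnmt1 KO, Mir143 had 5319 RPM in A (360 reads) and 6961 in B (749 reads). In the double knockout it had 7186 RPM in 1A (176 reads), 7463 in 1B (65 reads), 14883 in 2A (944 reads) and 4393 in 2B (662 reads). The 2 libraries of double knockout culture 2 differed 3.39-fold from each other, more than the cultures did once A and B were summed, at 7259 RPM for culture 1 and 7500 RPM for culture 2.

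**Figure D1:**
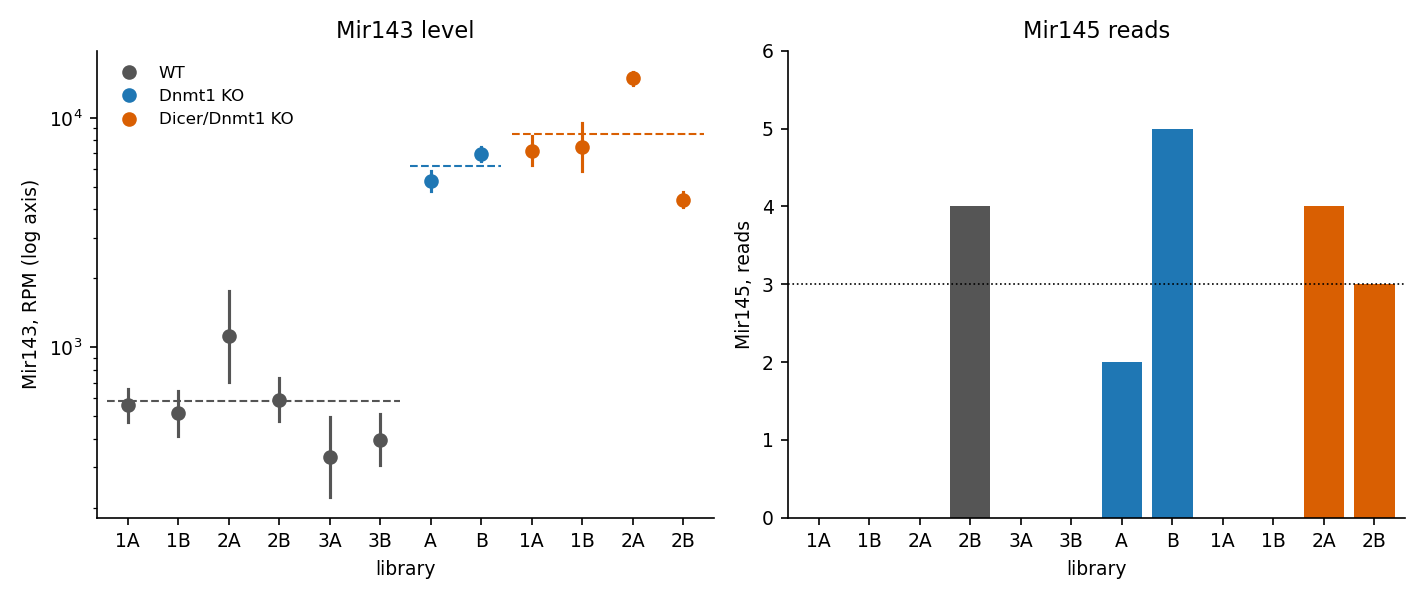
Left, Mir143 in RPM on a log axis in each of the 12 libraries, with 95% Wilson intervals as bars (counting error only) and group means as dashed lines. Right, Mir145 in reads per library, with a dotted line at 3 reads, the count that a reading of 0 allows. Mir143 lies at 1115 RPM or less in the 6 WT libraries and at 4393 RPM or more in the other 6, while Mir145 reaches 5 reads at most.

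Here and below, an error after ± is the SD over the libraries named (n is their number). Mir143 averaged 585 ± 278 RPM over 6 WT libraries, 6140 ± 1161 RPM over 2 of Dnmt1 KO and 8481 ± 4487 RPM over 4 of the double knockout. The means were 10.5 times WT in Dnmt1 KO and 14.5 times WT in the double knockout. The lowest knockout library lay 3.94 times above the highest WT library. The 2 knockout groups overlapped, with both Dnmt1 KO libraries inside the range of the 4 double knockout libraries, so their order is not larger than the spread. The filter on low reads (111.3 RPM in at least 2 libraries and 15 reads in all) left 683 features, of which 17.1% had both Dnmt1 KO libraries above all WT libraries and 10.4% had all 4 double knockout libraries above them. Mir143 is in both sets, which its selection used.

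The log2 fold changes came from 1 limma model over all 12 libraries, on log2(RPM + 10) after scaling by trimmed means of log ratios (TMM). For Mir143 they were 3.76 (SE 0.63) in Dnmt1 KO relative to WT, 3.11 (SE 0.50) for the double knockout against WT and -0.65 (SE 0.67) for the double knockout against Dnmt1 KO. The third is near its own SE, and its sign depends on the scaling: with library reads alone it was 0.34, when the median over all features was 0.75. Set against the median of all tested features in the same fit, it was -0.52 with TMM and -0.41 with library reads alone. At an adjusted p of 0.05 the model called 7.17% of the 683 features for Dnmt1 KO against WT, 24.5% for the double knockout against WT and 23.1% for the double knockout against Dnmt1 KO, in either direction. Mir143, the 1 member of 2 that passed the filter, is among those of the first 2 contrasts, which its selection used as well. All 3 contrasts share libraries, so their values for Mir143 are not independent of each other.

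Other miRNAs moved differently between the 2 knockout groups. Over the 133 miRNAs that passed the filter, the median log2 fold change was 1.53 for Dnmt1 KO against WT, -2.67 for the double knockout against WT and -4.22 for the double knockout against Dnmt1 KO. In the last contrast 100 of the 133 were called lower and 0 higher. Mir143 ranked 18th of 133 by fold change for Dnmt1 KO against WT, and 14 of the 17 miRNAs above it lie in the imprinted Dlk1-Dio3 locus. For the double knockout against WT it ranked 7th, behind Mir127, Mir434, Mirlet7i, Mir411, Mir410 and Mir541, of which all but Mirlet7i lie in that locus. For the double knockout against Dnmt1 KO it ranked 13th, behind 12 that include Mir10a, Mir31, Mir221 and Mir222 of the mesenchymal list and 2 let-7 genes.

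Mir143 was a larger part of the miRNA reads in both knockout groups than in WT, most of all in the double knockout. It was 0.0923% to 0.193% of miRNA reads in the 6 WT libraries, 0.813% and 1.11% in the 2 Dnmt1 KO libraries, and 5.98%, 11.2%, 14.5% and 6.16% in double knockout 1A, 1B, 2A and 2B. The means were 0.135% ± 0.0368 over 6 WT libraries, 0.961% ± 0.210 over 2 of Dnmt1 KO and 9.46% ± 4.14 over 4 of the double knockout. The share depends also on the total of miRNA reads, 29.5% to 65.8% of counts in WT and 6.55% to 12.7% in the double knockout. How many other miRNAs separate the groups on this measure was not counted. Among miRNAs ranked by reads within a library, Mir143 was 27th to 56th in WT and 18th or 19th in Dnmt1 KO. In the double knockout it was first in 2A, with 944 reads ahead of 704 for Mir21, and held the third place in 1A, 1B and 2B.

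Ratios of reads within 1 library need no scaling between libraries. Per 100 reads of the 14 other mesenchymal miRNAs together, Mir143 had 2.52 to 7.60 reads in WT, 12.8 and 13.8 in Dnmt1 KO, and 38.3, 46.1, 49.4 and 49.3 in the double knockout. Against Mir21, an abundant miRNA of many fibroblasts and tumours, the ratio was 0.119 ± 0.113 over 6 WT libraries, 0.350 ± 0.0341 over 2 of Dnmt1 KO and 1.15 ± 0.168 over 4 of the double knockout. WT 2A stood apart with 0.346 (18 reads against 52), inside the range of Dnmt1 KO, while the other WT libraries lay between 0.0466 and 0.0977. All 4 double knockout libraries, at 0.942 to 1.34, lay above both Dnmt1 KO libraries. Mir21, Mir22 and Mir27b hold 9529, 6660 and 3022 of the 22460 list reads. All 3 were called lower in the double knockout than in Dnmt1 KO, by -2.36, -3.37 and -3.74 on the log2 scale. The ratio to the list and that to Mir21 thus depend also on these levels. How many other features separate the groups on these ratios was not counted. Against Mir10a, a miRNA encoded in a Hox cluster, the order of the 2 knockout groups was not kept. That ratio was 0.985 ± 0.282 over 6 WT libraries, 4.35 ± 2.26 over 2 of Dnmt1 KO and 2.59 ± 0.950 over 4 of the double knockout, and double knockout 1A, at 1.20, lay inside the WT range of 0.706 to 1.46. Both reference miRNAs were chosen after values were seen.

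**Figure D2:**
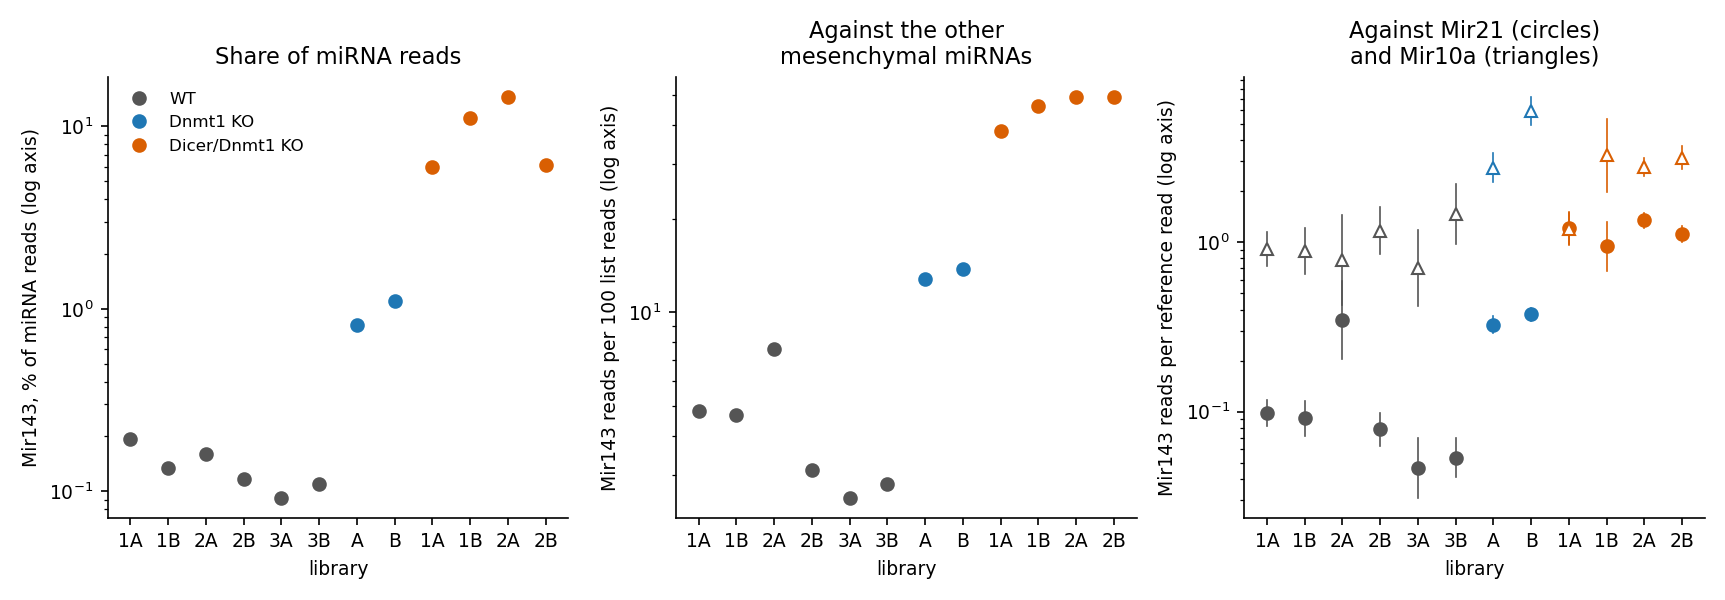
Mir143 in each of the 12 libraries as a percent of miRNA reads (left), per 100 reads of the other mesenchymal miRNAs (middle), and per read of Mir21 (circles) and Mir10a (triangles) with 95% Wilson intervals (right), all on log axes. In the left and middle panels the double knockout is highest, at 5.98% to 14.5% and 38.3 to 49.4 reads. The total of miRNA reads, the base of the left panel, is a smaller part of the counts there. Mir21, Mir22 and Mir27b, which hold most reads of the middle panel's base, were called lower there than in Dnmt1 KO. Against Mir10a the 2 knockout groups overlap.

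Mir145 was close to undetected in all groups. It had 18 reads in all, against 3350 of Mir143, and did not pass the filter. In WT it had 4 reads in 2B and 0 in the other 5 libraries. In Dnmt1 KO it had 2 reads in A and 5 in B. In the double knockout it had 4 reads in 2A, 3 in 2B, and 0 in 1A and 1B, where a count of 0 allows up to 122.5 and 344.4 RPM. Only WT 2B, Dnmt1 KO B and double knockout 2A were above the 3 reads that a count of 0 allows. Over pooled reads Mir145 came to 5.25 RPM in WT (95% Wilson interval 2.04 to 13.5), 39.9 RPM in Dnmt1 KO (19.3 to 82.4) and 28.3 RPM in the double knockout (13.7 to 58.4). These intervals cover counting error only and not the spread between libraries, which includes zeros in 2 of the 3 groups. A difference between the groups in Mir145 was not detectable at this depth from library to library.

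Mir143 made up 99.5% of the 3368 reads of the pair. The share was 99.2% ± 1.88 over 6 WT libraries, 99.4% ± 0.0782 over 2 of Dnmt1 KO and 99.8% ± 0.252 over 4 of the double knockout. In 7 of the 12 libraries it was 100%, with a lower Wilson limit from 82.4% in WT 2A, with 18 reads of the pair, to 97.9% in double knockout 1A, with 176. The lowest share was 95.4% (interval 88.8% to 98.2%) in WT 2B. All 3 group means differed by less than the SD of the WT libraries.

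The mesenchymal and smooth muscle miRNAs listed beside the pair are 17 symbols, of which 14 are in the table and 8 passed the filter. Only calls in these 8 carry a test, limma with Benjamini-Hochberg adjustment over all 683 features. For Dnmt1 KO against WT 2 of 8 rose, 0 fell and 6 did not pass, beside 7.17% called over all features. The median log2 fold change was 1.85, beside 0.23 over all features. The list is near the miRNAs as a class here: of the 133 tested, 30 were called higher and 1 lower, with a median of 1.53. The double knockout against WT gave 2 of 8 higher, 0 lower and 6 not passing, beside 24.5% called over all features. The median was -0.15, beside 0.03. Of the 2, Mir221 passed the filter only through double knockout libraries. Of the 133 tested miRNAs, 17 were called higher and 80 lower in this contrast, with a median of -2.67. The double knockout against Dnmt1 KO gave 0 higher, 3 lower and 5 not passing, beside 23.1% called. The median was -1.05, beside -0.13. Of the 133 tested miRNAs, 0 were called higher and 100 lower in this contrast, with a median of -4.22. For Dnmt1 KO against WT the count of the list moved with the share called over all features. It was 6 without the libraries titled E14 2 (27.6% of all features called), 4 without WT 2A (13.3%), 1 with culture as a random effect (4.83%, at an estimated correlation within cultures of 0.253), and 0 without Dnmt1 KO A (2.31%) or B (2.5%). For the double knockout against WT the count of the list was 0 with culture as a random effect (20.1% of all features called). There limma adjusted p was 0.0963 for Mir10a and 0.105 for Mir221. Without 1 library this count ran from 0 to 2 higher and from 0 to 1 lower, beside 21.6% to 29.0% of all features called. Mir27b was called lower and none higher without WT 1B, WT 3B or double knockout 2A, and it was called lower beside 1 higher without WT 3A. At an unadjusted p under 0.05 the same limma fits had 6 of 8 for Dnmt1 KO against WT, all higher, beside 18.6% of all features. They had 4 of 8 for the double knockout against WT, 3 higher and 1 lower, beside 33.4%, and 3 of 8 for the last contrast, all lower, beside 27.2%.

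Mir22 and Mir21, the most abundant of the list, rose in Dnmt1 KO and were lower in the double knockout than in Dnmt1 KO. Mir22 had 3388 ± 1258 RPM over 6 WT libraries, 17955 ± 3389 over 2 of Dnmt1 KO and 3856 ± 2200 over 4 of the double knockout. Its log2 fold change was 2.75 (SE 0.54, limma adjusted p = 0.00395) for Dnmt1 KO against WT and -3.37 (SE 0.57, limma adjusted p = 0.000356) for the double knockout against Dnmt1 KO. Mir21 had 6109 ± 1637 RPM over 6 WT libraries, 17471 ± 1617 over 2 of Dnmt1 KO and 7221 ± 3054 over 4 of the double knockout. It rose by 1.86 (SE 0.43, limma adjusted p = 0.0151) in Dnmt1 KO against WT and fell in the double knockout against Dnmt1 KO (-2.36, SE 0.46, limma adjusted p = 0.0011). The rise was lost in 4 of 23 alternatives for Mir22 and in 6 of 23 for Mir21. Both were lost without either Dnmt1 KO library, with TMM over all features and with A and B summed per culture (for the last, limma adjusted p = 0.201 for Mir22 and 0.314 for Mir21). That of Mir21 was lost also with culture as a random effect (limma adjusted p = 0.0544 with the estimated correlation) and with library reads alone (limma adjusted p = 0.166). The fall of Mir21 was lost with A and B summed (limma adjusted p = 0.0678) and with library reads alone (limma adjusted p = 0.113).

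Mir27b, the third by reads, was lower in the double knockout than in Dnmt1 KO (1183 ± 950 RPM over 4 libraries against 6608 ± 1760 RPM over 2). The log2 fold change was -3.74 (SE 0.80, limma adjusted p = 0.00232). Against WT, with 2138 ± 1132 RPM over 6 libraries, neither group passed the test, though the double knockout was called lower in 6 of 25 alternatives.

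Mir10a and Mir221, of which the latter is known to repress the cell cycle inhibitor Cdkn1b, were called higher in the double knockout than in WT. Mir10a had 646 ± 401 RPM over 6 WT libraries, 1553 ± 541 over 2 of Dnmt1 KO and 3769 ± 2262 over 4 of the double knockout. The last differed from WT by 1.78 on the log2 scale (SE 0.60, limma adjusted p = 0.0431). For Mir221, with 39 reads in all 12 libraries, the difference was 1.66 (SE 0.55, limma adjusted p = 0.0380). Mir221 passed the filter only through double knockout 1B (1 read) and 2A (12 reads), the group where it was called higher. The filter thus used the values that the call compares, so its p is not a fair test. Both calls were lost in many alternatives, that of Mir10a in 16 of 25 and that of Mir221 in 10 of 17. Among them were a pseudocount of 1, no filter and culture as a random effect. Mir221 was tested in only 4 of the 12 fits without 1 library, and did not pass the filter in the rest. 

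Mir222, Mir10b and Mir31 passed in no contrast. Of the 6 listed miRNAs under the filter, Mir214 and Mir152 had 16 reads each, and Mir99a, Mir125b-2, Mir199a-2 and Mir199a-1 had 5, 4, 1 and 0. Mir199a and Mir214 are miRNA partners that many fibroblasts and smooth muscle cells express along with this pair. Mir214 was at 6 reads or fewer in every library, with 1 read over the 6 WT libraries, 6 over the 2 of Dnmt1 KO and 9 over the 4 of the double knockout. Its mean was 1.16 ± 2.84 RPM in WT, 30.6 ± 22.4 RPM in Dnmt1 KO and 45.7 ± 49.3 RPM in the double knockout, so 15 of its 16 reads lay in the groups where Mir143 was high, and its part in the level of Mir143 was not tested. The list summed to 13950 ± 2858 RPM over 6 WT libraries, 46146 ± 6313 over 2 of Dnmt1 KO and 18501 ± 8807 over 4 of the double knockout. The sum was lower in the double knockout than in Dnmt1 KO, while the level of Mir143 overlapped between them. Most reads of the sum are of Mir21, Mir22 and Mir27b. The other 5 tested members were not called between the knockout groups. In mean RPM Mir10a, Mir31, Mir221 and Mir222 were higher in the double knockout than in Dnmt1 KO, and Mir10b was lower.

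**Figure D3:**
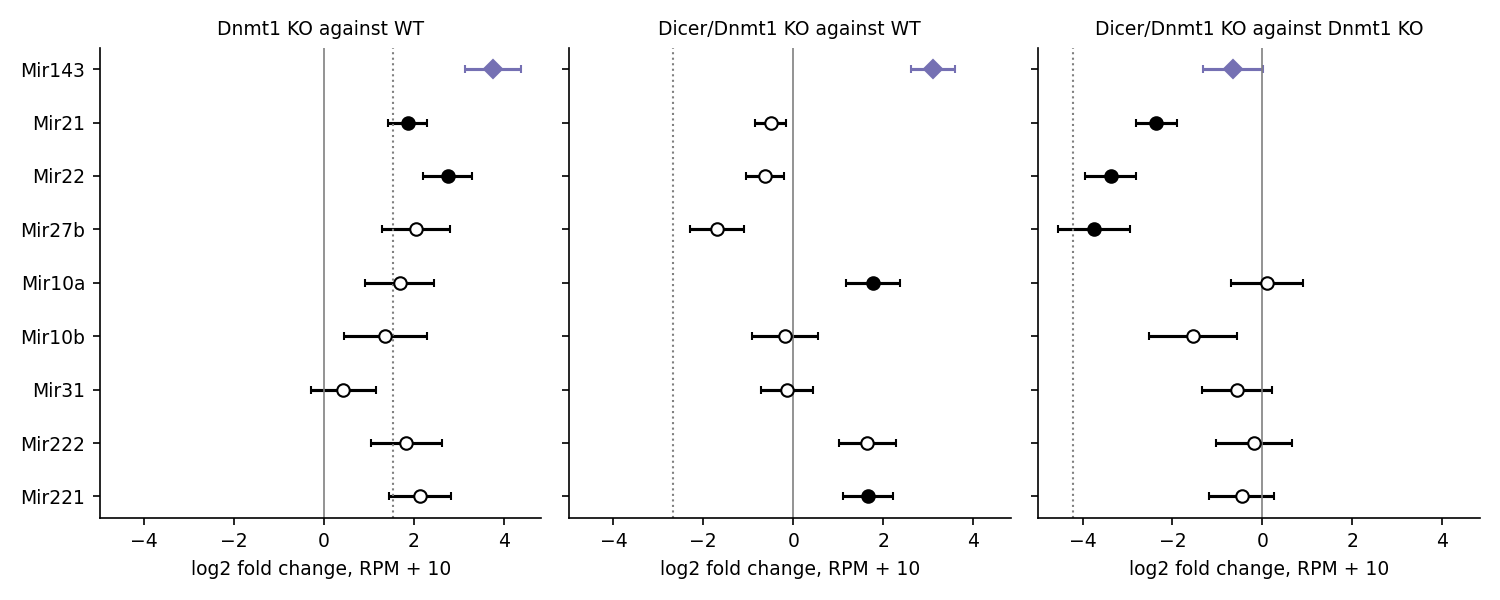
Log2 fold changes on the log2(RPM + 10) scale with standard errors for Mir143 (diamonds, a description with no test) and the 8 mesenchymal miRNAs that passed the filter (circles, filled where called), in 3 contrasts; dotted lines mark the median of 133 miRNAs. Mir143 lies to the right of the list in both contrasts with WT, at 3.76 and 3.11. In the third contrast it lies at -0.65, where Mir21, Mir22 and Mir27b are called lower.

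Other cell types that the cultures could hold were looked for by their own miRNAs. In bulk RNA, fewer cells of a type and less RNA per cell cannot be told apart. Striated muscle miRNAs (7 of 10 symbols in the table) had 2 reads in all, with 1 of Mir499. The liver miRNA Mir122a had 0. Neural miRNAs (5 of 11) had 82 reads, all of Mir128-1. Mir126 of endothelial cells had 155 ± 110 RPM over 6 WT libraries and 677 ± 24.5 RPM over 2 of Dnmt1 KO, and 0 reads in all 4 double knockout libraries. Its rise in Dnmt1 KO (2.55, SE 0.69, limma adjusted p = 0.0390) was lost in 15 of 23 alternatives, while its lower level in the double knockout than in WT (limma adjusted p = 5.03e-05) passed in 25 of 25. Blood miRNAs, most of them Mir142, summed to 718 to 807 RPM in WT, 547 and 743 in Dnmt1 KO, and 0 to 122 in the double knockout. A lower level there was not particular to endothelial or blood miRNAs. Of the 133 tested miRNAs, 80 were called lower and 17 higher in the double knockout than in WT, with a median of -2.67. All 10 tested ESC miRNAs were among those called lower, with a median of -5.24.

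Fragments of mRNAs of fibroblast and smooth muscle genes were few, and most abundant in 1 double knockout library. Of 16 mesenchymal genes, 10 had a read, and Pdgfra, Thy1, Dcn, Lum, Des and Cnn1 had none in any library. Their fragments summed to 0 to 97.3 RPM in WT, 59.1 and 83.6 RPM in Dnmt1 KO, and 81.7 to 491 RPM in the double knockout. The sums in double knockout 1A and 1B were under the 3 reads that a count of 0 allows. RPM in this group depend also on its smaller part of miRNA reads, 6.55% to 12.7% of counts against 29.5% to 65.8% in WT. The highest value was in double knockout 2B (74 reads), the deepest library of that group with 150701 reads. Fn1, which encodes fibronectin, had the most reads, 73, of which 28 in double knockout 2B, and passed in no contrast. Sparc, a matrix protein gene, had 36 reads, of which 22 in that library. Smooth muscle actin (Acta2) with 8 reads, the collagen genes Col1a1, Col1a2 and Col3a1 with 4, 3 and 1, and the receptor gene Pdgfrb with 1 had reads in the double knockout alone, 15 of these 17 in 2B. The share of all features with reads in that group alone, or mostly in 2B, was not counted. Vim had 2 reads in WT, 2 in Dnmt1 KO and 8 in the double knockout, Tagln 3, 0 and 3, and Myh11 1, 0 and 1. The part of other cells in the level of Mir143 was not tested. The regulators Srf, Myocd, Mkl1, Mkl2 and Nkx2-5 had 43 reads together, most of them Mkl1 with 25, and 0 to 9 per library. The 7 reported targets on the list had 84 reads together, led by Sox2 with 31, and 0 to 21 per library. Neither list had a member past the filter, so no change in regulators or targets could be read from these short fragments.

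On NCBIM37 the members lie on the minus strand of chromosome 18, Mir143 at chr18:61808850-61808912 (63 bases) and Mir145 at chr18:61807470-61807557 (88 bases), with 1292 bases between them. In the annotation used neither lies in another gene, and the nearest, the long noncoding gene Gm16908, lies 1715 bases from Mir143 at chr18:61810628-61825191 and had 0 reads in all 12 libraries. Within 500 kb of the pair lie 15 other features, of which 11 had a read and 3 passed the filter. The other 8 with reads (Hmgxb3, Slc26a2, Pde6a, Il17b, Pcyox1l, Grpel2, Afap1l1 and Sh3tc2) had 1 to 9 reads each.

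The nearest miRNA, AC116595.1, lies 249.9 kb away inside the span of Ppargc1b, a gene for a coactivator of mitochondrial genes, and on its other strand. It moved the other way from Mir143 in the double knockout, as did most tested miRNAs. Of the 133 tested, 80 were called lower there than in WT, with a median of -2.67. Its reads were 280, 325, 7, 177, 109 and 208 in WT 1A, 1B, 2A, 2B, 3A and 3B, then 47 and 99 in Dnmt1 KO A and B, and 0, 0, 8 and 2 in double knockout 1A, 1B, 2A and 2B. The log2 fold change was -6.04 (SE 0.58, limma adjusted p = 2.5e-06) for the double knockout against WT and -0.30 (SE 0.73, limma adjusted p = 0.877) for Dnmt1 KO against WT. Ppargc1b had 1265 reads, against 1262 of AC116595.1, since counting did not use strand and the same reads count for both. Csnk1a1, a casein kinase gene 57.8 kb from the pair and the nearest tested feature, had 76 reads and passed in no contrast.

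**Figure D4:**
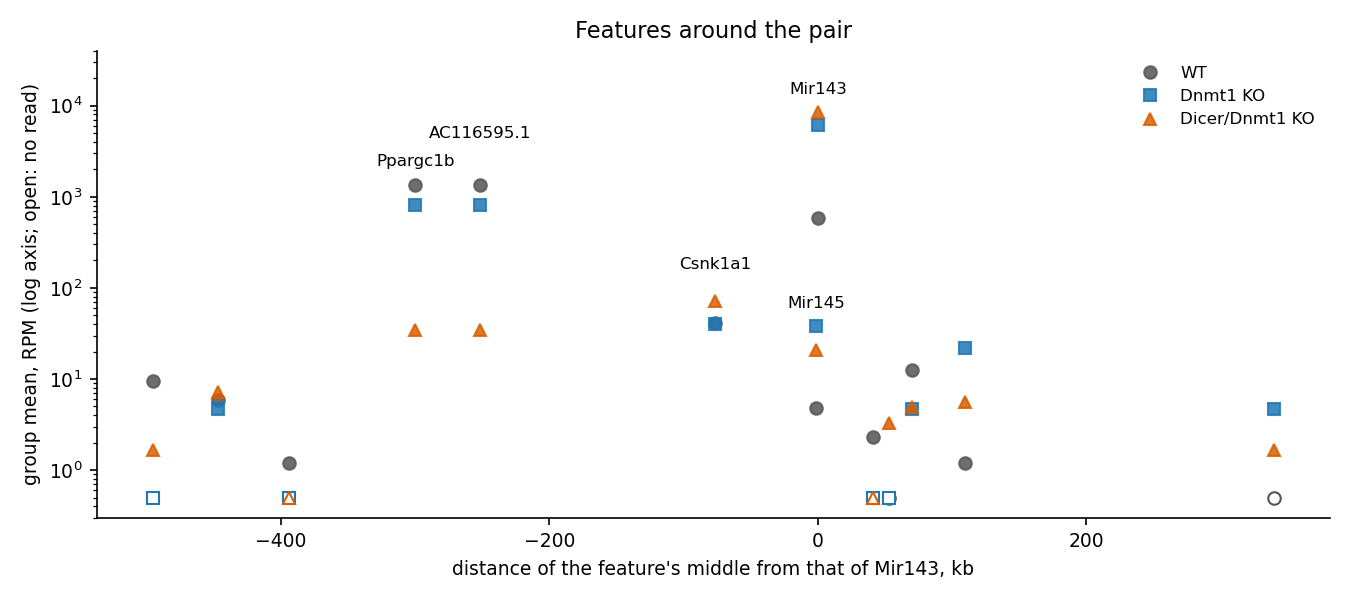
Mean RPM by group on a log axis for each feature with a read within 500 kb of the pair, against the distance of its middle from that of Mir143 in kb; open symbols at the bottom had no read in that group. Mir143 is lowest in WT and AC116595.1 lowest in the double knockout, while the features closer to the pair stay under 100 RPM.

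The features most like Mir143 over the 12 libraries, by Pearson r of log2(RPM + 10) among 682 tested features, were Rtl1 (0.95), Mir127 (0.94), Nr6a1 (0.93), Mirg (0.93) and Mir410 (0.92). All but Nr6a1 lie in the Dlk1-Dio3 locus, which codes for imprinted miRNAs. These are not 5 separate observations: 89.1% of the reads of Rtl1 equal those of Mir127 on its other strand, Mirg holds Mir410, and 69 of the 95 reads of Nr6a1 come from Mir181a-2. With group means removed the values were 0.91, 0.93, 0.75, 0.86 and 0.91. The 12 points share library depth, miRNA content and scaling, and no p is given. Mir127 differed from Mir143 in size: it had 0 to 8 reads per WT library, 32729 and 27591 RPM in Dnmt1 KO, and 2205, 804, 5471 and 723 RPM in double knockout 1A, 1B, 2A and 2B, so that it was lower in all double knockout libraries than in both Dnmt1 KO libraries, where Mir143 overlapped. For Mir145 the closest were Mir136, Mir431 and Mir411 (0.81 each) and Mir381 and Mir541 (0.79 each), all of the same locus. They rest on 18 reads, and fell to between 0.58 and 0.66 without the 2 libraries farthest from the median of Mir145.

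**Figure D5:**
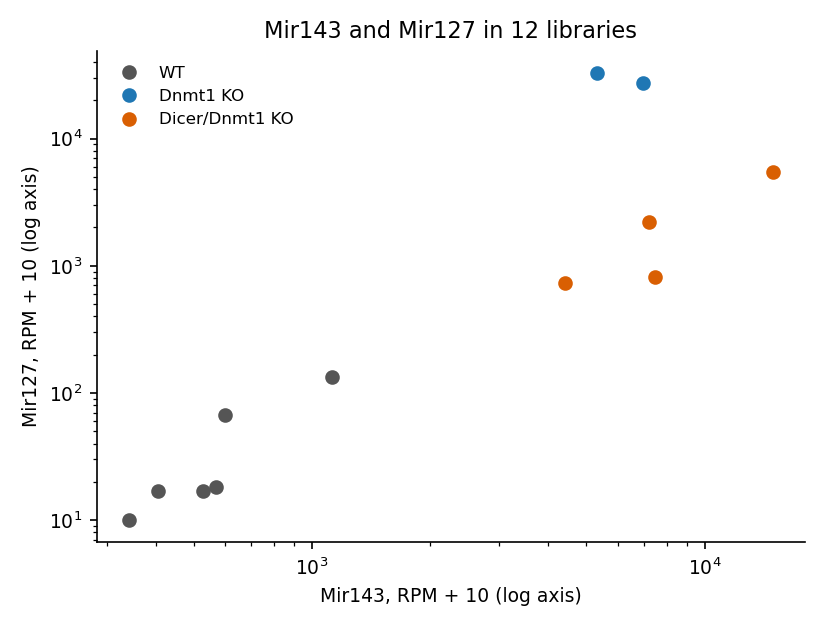
Mir127 against Mir143 in the 12 libraries, both as RPM + 10 on log axes. The WT libraries lie low on both axes, and at like levels of Mir143 the 2 Dnmt1 KO libraries have Mir127 at 27591 and 32729 RPM while the 4 double knockout libraries have 723 to 5471 RPM.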

How the data were processed

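Per the labels and methods, the authors trimmed reads (Trim Galore 0.3.5), kept 20 to 24 nt, aligned to NCBIM37 with Bowtie2 2.2.6 and counted annotated features in SeqMonk; the placement of multiply mapping reads is not given in the sources used here. The deposited values were log2 RPM, in which the authors wrote 0 reads as 0.9 read, and whole reads were recovered (100.0% of values within 0.1 read). The table holds 89 other value columns, of no sample here, which were left out. The study's count test was not run on log2 values. limma 3.58.1 under R 4.3.3, with its trend option, was fitted on log2(RPM + 10), which understates changes of low features, after TMM scaling over tested features (trimming 30% of ratios and 5% of abundances) in 1 model of the 3 groups without covariates, with Benjamini-Hochberg adjustment at 0.05. It was tested on simulated data. Tested features had 111.3 RPM (10 reads at the median depth) in at least 2 libraries and 15 reads in all. All 32101 features matched GENCODE on NCBIM37.

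The members and the lists were chosen with earlier results of these data known. Named were both members, features with a read within 500 kb, the 5 tested features most correlated with each member, the tested mesenchymal miRNAs, and of other lists the sums and leading members; miRNAs ranked above Mir143, those of lists with few reads and Gm16908 were named after their values were seen. Of the list of reported targets, 1 gene is not reported here. Alternatives are given in the closing section. Wilson intervals are at 95%, and a count of 0 allows up to 3 reads.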

Additional observations from a re-analysis of the deposited data

Results flagged for a closer look

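Of 32 groups of values examined for 1 library far from the rest, 7 had one. The nominal rate of about 1 in 20 holds for independent, normally distributed values. Several groups here rest on the same reads, so the 7 cannot be set against that rate. Of these, 6 fall in WT culture 2, whose shallower library has 18 reads of Mir143.

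WT 2A stood apart from the other 5 WT libraries in 4 measures. Mir143 was at 1115 RPM there against 333 to 592 RPM in the others, and at 0.346 reads per Mir21 read against 0.0466 to 0.0977. Mir10b was at 4275 RPM against 420 to 1084 RPM, and Mir10a at 1425 RPM against 271 to 616 RPM.

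WT 2B stood apart as the one WT library with Mir145 reads, at 28.5 RPM against 0.0 RPM, which also gave it a Mir143 share of the pair of 95.4% against 100%. Both measures rest on the same 4 reads, and with 0 in all other WT libraries any read would stand apart. Mir221 in WT 3A, at 41.6 RPM from 3 reads, lay above the other WT libraries at 0.0 to 14.3 RPM.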

How the results depend on the processing

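Mir143 kept its direction against WT in every alternative run: 3.47 to 4.29 for Dnmt1 KO against WT over 11 alternatives and 2.66 to 3.80 for the double knockout against WT over 13, each within the residual SD of 0.78 of the value reported. The selection of Mir143 used these levels, so the kept direction is a description and no test of the difference. Between the 2 knockout groups it ran from -1.23 to 0.34, and was above 0 with library reads alone (0.34). Leaving out 1 library gave 3.50 to 4.11, 2.89 to 3.44 and -0.90 to -0.24. The mean RPM of Mir143 ran from 479 to 636 in WT, 5319 to 6961 in Dnmt1 KO and 6347 to 9844 in the double knockout without 1 library, and its share of the pair from 99.1% to 100%, 99.3% to 99.5% and 99.7% to 99.9%. Over the 4 other scalings the median of all tested features moved between -0.07 and 0.51, -0.22 and 0.61, and -0.67 and 0.75 in the 3 contrasts.

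The count of mesenchymal miRNAs called by limma is given with the share called over all features of the same fit in brackets. For Dnmt1 KO against WT it was 2 as reported (7.17%), 1 with library reads alone (4.98%) and with culture as a random effect (4.83%), 0 with TMM over all features (4.1%) and with A and B summed (1.98%), and 6 without E14 2 (27.6%). Without 1 library it ran from 0 to 4 (2.31% to 13.3%), with 4 without WT 2A and 0 without either Dnmt1 KO library. For the double knockout against WT, 2 as reported (24.5%), it was 0 with a pseudocount of 1 (22.0%), with factors from snoRNAs and snRNAs (23.0%), with TMM over all features (22.4%), with no filter (0.991%) and with culture as a random effect (20.1%). It was 1 with TMM without miRNAs (23.9%, Mir27b, lower) and with A and B summed (18.0%). It was 3, all higher, with a pseudocount of 50 (25.6%) and with library reads alone (29.3%), and 4 with voom (29.0%, 3 higher and 1 lower). Without 1 library it ran from 0 to 2 higher and from 0 to 1 lower (21.6% to 29.0%). For the double knockout against Dnmt1 KO, 3 as reported (23.1%), it stayed at 2 to 4 in the alternatives (1.22% to 29.7%) and at 3 without any 1 library (15.6% to 26.8%). In the fits with a count of 0, from 2 to 5 listed miRNAs had an unadjusted p under 0.05, beside 10.1% to 14.1% of all features for Dnmt1 KO against WT and 5.81% to 34.9% for the double knockout against WT. The cause of these changes was not tested. TMM over all features and the fit without the block were chosen after seeing the data.

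WT and double knockout libraries share the numbers 1A, 1B, 2A and 2B. Their deviations from the group means did not go together (Pearson r of -0.22, 0.12, -0.17 and -0.29), so no pairing by number was detected. With few libraries of uneven depth, these values cannot show that the numbers are unpaired. With the replicate block Mir143 was 2.66 for the double knockout against WT and 0 mesenchymal miRNAs were called (17.2% of all features), as in the same 8 libraries without the block (2.66 and 0, with 18.4%).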
